A study of Mus musculus with 10 samples.

Results

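The genes of the proteasome were described in mouse embryonic stem cells (ESCs) whose mothers of origin had eaten a low protein diet (LPD) or a normal protein diet (NPD). Members were taken by name, as every protein-coding gene of the table whose symbol begins with Psm, a letter from a to g and a number. The inducible immunoproteasome subunits Psmb8, Psmb9 and Psmb10 were left out. This gave 46 genes of the 20206 in the table, and all 46 passed the requirement of a mean value of at least 10 that 14354 genes met. They comprise 16 genes of the core, 17 of the cap and 13 others, which are assembly chaperones, activators, an inhibitor and Psmc3ip, a recombination protein that shares only the name. The members lie on 16 chromosomes, with 9 on chromosome 11. The values of Psmd10 are identical with those of a second gene entry (ENSMUSG00000116430), so its reads cannot be assigned to 1 of the entries.

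All 10 lines were male, wild-type C57Bl/6 cells from different mothers, with 5 lines for each diet. Mothers of 7 to 9 weeks of age received 9% casein (LPD) or 18% casein (NPD) in isocaloric diets until embryonic day 3.5. The blastocysts were then put into culture on feeder cells, and the cells were sequenced many passages after the diet had ended. RNA was taken from cells grown without fibroblasts and sequenced after selection on oligo(dT). Each line is 1 blastocyst, has its own number (LPD 1, 4, 6, 20 and 40, and NPD 8, 15, 21, 36 and 51) and was counted as 1 replicate. Values are per gene and normalized between lines by the authors. Depth, as the number of reads that the values of a line correspond to, was 20349992 to 23175871 in the NPD lines but 5855162 in LPD line 4, 11237585 in LPD line 40 and 12322849 in LPD line 6, against 21838801 and 24225238 in LPD lines 1 and 20.

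The proteasome degrades proteins that carry chains of ubiquitin. Its core is a barrel in which outer rings of alpha subunits control entry and inner rings of beta subunits cut the chain, with Psmb5, Psmb6 and Psmb7 holding the active sites of the constitutive particle. The cap recognises ubiquitin, removes it and feeds the unfolded substrate into the barrel through a ring of ATPases. Embryonic stem cells are known to depend on high proteasome activity, and the factor Nfe2l1 is known to raise proteasome genes together through antioxidant response elements in their promoters when the activity falls short.

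The promoters were searched for the core of the antioxidant response element and for other motifs. Some of the windows that hold a match are shown. RefSeq (GRCm38.p6) gave windows of 250 bases before to 50 after the start for 38 of the 46 members, 41 windows in all. The core of the antioxidant response element, searched as TGACNNNGC on both strands, was in the windows of 6 members (Psmb5, Psmb6, Psmc6, Psmd9, Psmd12 and Psme4), 14.6% of the 41 windows, beside 12.4% of all 32851 windows and 15.8% of the 3880 windows of genes with a mean value of at least 1000. Below, each stretch is written 5′ to 3′ on the strand of the gene with the match in capitals, and stops before the first annotated start. The match began 47 bases before the RefSeq start in Psmb5 (chr14:54618023-54618245, minus strand) and 9 bases before it in Psmb6 (chr11:70525107-70525356, plus strand). It began 227 bases before it in Psmc6 (chr14:45329574-45329787, plus strand) and 247 before it in Psmd12 (chr11:107479278-107479483, plus strand), on the opposite strand in both. Psmb5 and Psmb6 encode catalytic subunits, Psmc6 a cap ATPase and Psmd12 a lid subunit.
Psmb5: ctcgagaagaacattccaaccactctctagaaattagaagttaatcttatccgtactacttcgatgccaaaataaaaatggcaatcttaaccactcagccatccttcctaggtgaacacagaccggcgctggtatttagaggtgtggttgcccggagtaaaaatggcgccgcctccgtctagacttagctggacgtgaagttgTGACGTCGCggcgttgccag
Psmb6: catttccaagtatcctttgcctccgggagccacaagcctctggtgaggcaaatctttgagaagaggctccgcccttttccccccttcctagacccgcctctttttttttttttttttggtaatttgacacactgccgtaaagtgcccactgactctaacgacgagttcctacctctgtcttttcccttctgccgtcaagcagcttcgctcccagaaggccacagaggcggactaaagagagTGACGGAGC
Psmc6: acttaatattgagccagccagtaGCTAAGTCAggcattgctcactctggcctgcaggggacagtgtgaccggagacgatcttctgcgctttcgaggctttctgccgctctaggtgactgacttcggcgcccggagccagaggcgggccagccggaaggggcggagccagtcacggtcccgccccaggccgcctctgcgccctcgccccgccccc
Psmd12: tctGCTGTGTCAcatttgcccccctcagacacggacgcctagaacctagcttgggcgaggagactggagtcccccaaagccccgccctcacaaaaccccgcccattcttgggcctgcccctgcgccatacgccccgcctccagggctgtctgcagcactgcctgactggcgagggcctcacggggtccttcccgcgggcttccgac
For Psme4 the match lies within an annotated transcript, begins 7 bases before the RefSeq start and runs over that start. For this gene 30 bases are shown (chr11:30771758-30771787, plus strand).
Psme4: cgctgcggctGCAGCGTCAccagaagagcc

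Of 9 motifs searched, the ETS-type core TTCCGG was the one for which core and cap windows stood furthest apart. It was in 11 of 15 cap windows (73.3%) and in 4 of 13 core windows (30.8%), beside 14.9% of all windows and 31.7% of those of genes with a mean of at least 1000. The GC box GGGCGG was in 10 of 15 cap and 5 of 13 core windows, beside 68.8% of the windows of those abundant genes, and the CCAAT box in 4 of 15 cap and 7 of 13 core windows, beside 38.4%. These motifs were picked after all 9 had been counted, and a match is only a run of letters. The promoter of the ubiquitin receptor Psmd4 (chr3:95042615-95042864, minus strand) holds the ETS-type core on both strands, so that the matches overlap from 127 bases before the start. In Psmd11 (chr11:80428365-80428614, plus strand), a lid subunit, it begins 10 bases before the start.
Psmd4: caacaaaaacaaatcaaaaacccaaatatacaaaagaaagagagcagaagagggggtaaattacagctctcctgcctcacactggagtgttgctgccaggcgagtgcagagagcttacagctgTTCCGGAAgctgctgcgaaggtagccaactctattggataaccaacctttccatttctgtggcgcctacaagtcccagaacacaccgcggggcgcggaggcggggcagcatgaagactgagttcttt
Psmd11: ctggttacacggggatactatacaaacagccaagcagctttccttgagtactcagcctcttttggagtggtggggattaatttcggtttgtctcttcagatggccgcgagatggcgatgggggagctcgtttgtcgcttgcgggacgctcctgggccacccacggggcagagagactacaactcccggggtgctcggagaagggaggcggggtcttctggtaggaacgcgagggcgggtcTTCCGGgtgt

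Levels were compared between genes per kilobase of the longest protein-coding transcript. The median over the core was 2774 and that over the cap 1874. The catalytic genes were among the most abundant of the core, with Psmb6 at the top at 6060 (mean of 10 lines, range 5055 to 7331), Psmb5 at 5007 (4444 to 6146) and Psmb7 at 4564 (3980 to 5457), and the beta subunit Psmb3 at 5415 (4526 to 6442) between them. The ranges of these neighbours overlap. The lowest of the constitutive core genes was Psma2 at 1062 (878 to 1392).

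The tissue-restricted core paralogues were much lower. Psma8, which replaces Psma7 in germ cells, was at 218 per kilobase (136 to 289) and Psmb11, the catalytic subunit of the thymus, at 11.2 (7.70 to 14.3), the lowest of all 46 members. By the longest transcript, cap genes spanned a narrower range, from the ATPase Psmc1 at 4471 (3938 to 5092) to Psmd11 at 1175 (1035 to 1383). Assembly chaperones, activators, the inhibitor and Psmc3ip ran from 1477 for Psme3, above 6 of the cap genes, to 137 for Psmd10. With the median transcript length in place of the longest the medians were 3736 for the core and 2405 for the cap. Single genes moved far more because short transcripts are annotated for them, such as Psmd2 from 2337 to 10501 and Psme4 from 701 to 6925. Psmd11 went from 1175 to 4671, above Psmc1 at 4471, Psme3 from 1477 to 5637 and Psma3 of the core from 1756 to 5819. The order given for the cap genes and for Psme3 thus holds for the longest transcript only.

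**Figure D1:**
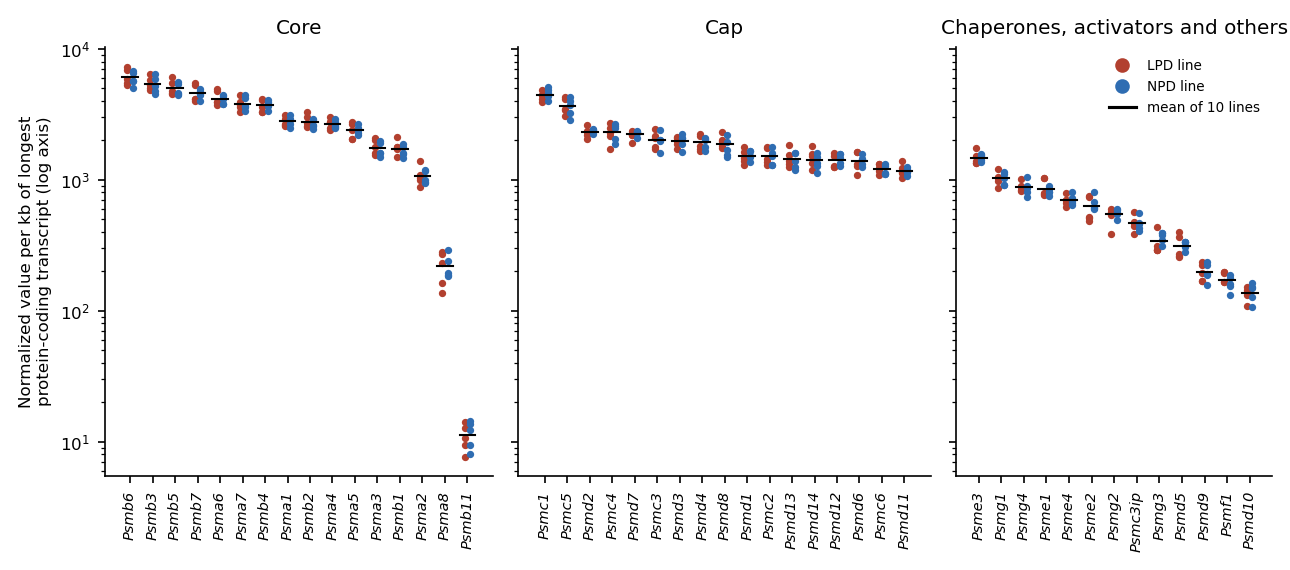
Level of each proteasome gene, as the normalized value per kilobase of the longest protein-coding transcript on a log axis, with 1 point for each of the 10 lines (red LPD, blue NPD) and a bar at their mean. Most core and cap genes lie between 1062 and 6060, with Psma8 at 218 and Psmb11 at 11.2 far below, and the points of the diets lie over each other for every gene.

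The question of the comparison is whether a low protein diet of the mother leaves a difference in the transcripts of ESC lines. No proteasome gene passed the test for a difference between the diets. At an unadjusted limma p under 0.05 the count was 0 of 46, beside 5.02% of all 14354 genes (721 genes, 2.84% higher and 2.18% lower in LPD). At an adjusted p under 0.1 it was 0 of 46, beside 0 of 14354 (0%). In no member did the values of the 5 LPD lines lie apart from those of the 5 NPD lines, which was the case for 1.02% of all genes. The log2 fold changes (LPD minus NPD, on log2(value + 1)) had a median of 0.00, as over all genes, and ran from -0.19 to 0.18, with 24 genes higher and 22 lower. That division depends on the scaling, with 13 of 46 higher when all lines were brought to 1 common total or quantile normalized. Of all genes 50.5% were higher in LPD as deposited, 42.2% at 1 common total and 47.3% with quantile normalization. The median standard error was 0.11, and among the constitutive core genes the 95% intervals stayed between -0.24 and 0.32. Each interval is for a single gene on the values as deposited, without adjustment for the number of genes. Larger differences are thus not excluded. A p above the threshold does not show that levels were equal.

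**Figure D2:**
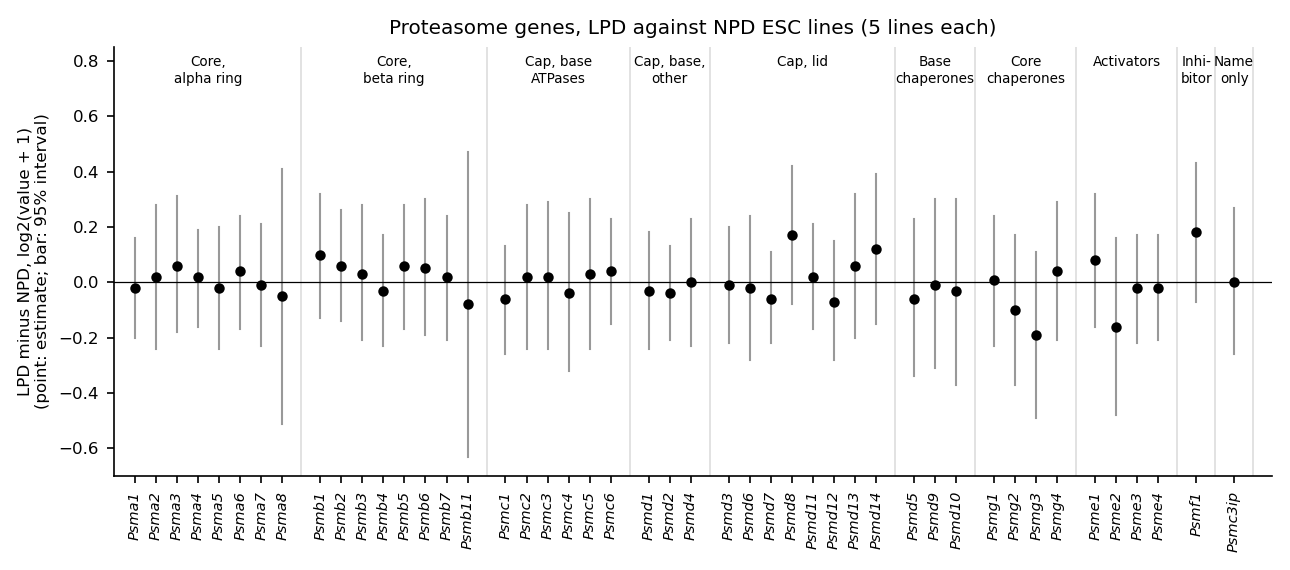
Difference of LPD and NPD lines for the 46 proteasome genes on the log2(value + 1) scale, with the limma estimate as a point and its 95% interval as a bar, grouped by role. All 46 intervals cross 0, and the estimates lie between -0.19 for Psmg3 and 0.18 for Psmf1.

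In the core, 10 genes were higher and 6 lower in LPD, with a median log2 fold change of 0.02. The catalytic subunit Psmb5 (ENSMUSG00000022193, chromosome 14, 54614119 to 54618022), which cuts after hydrophobic residues and is the main target of proteasome inhibitors, had values of 4317, 4047, 4167, 4914 and 5525 in LPD lines 1, 4, 6, 20 and 40 and of 4084, 3995, 4990, 4151 and 4824 in NPD lines 8, 15, 21, 36 and 51. The groups overlap, with LPD line 40 above every other line, and the log2 fold change was 0.06 ± 0.10 (SE, 5 lines each, exact permutation p = 0.571). Psmb6 (ENSMUSG00000018286, chromosome 11, 70525367 to 70527858), the caspase-like subunit, had 4691, 4396, 4233, 5487 and 5850 in the LPD lines and 4530, 4034, 5177, 4520 and 5442 in the NPD lines, in the same order. Its log2 fold change was 0.05 ± 0.11 (exact permutation p = 0.643). LPD lines 20 and 40 were above every NPD line and the other three within the NPD range.

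Psmb7 (ENSMUSG00000026750, chromosome 2, 38588036 to 38644087), the trypsin-like subunit, had 4812, 4617, 4833, 6331 and 6105 in LPD and 5138, 4624, 5261, 5495 and 5724 in NPD. LPD lines 20 and 40 again lay highest, and the log2 fold change was 0.02 ± 0.11 (exact permutation p = 0.881). Psmb1, a beta subunit without an active site, had the largest estimate of the core at 0.10 ± 0.10 (exact permutation p = 0.365), with LPD line 40 at 4218 and the other 9 lines between 2866 and 3698. Among the alpha genes the estimates ran from -0.05 to 0.06.

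The tissue-restricted paralogues were low in LPD line 40, where most core genes were high. Psma8 had 459, 478, 230, 391 and 277 in LPD and 489, 404, 310, 330 and 320 in NPD. LPD line 40, which was highest for 9 of the 16 core genes, was the second lowest for Psma8. The lowest was LPD line 6, which was also lowest of the 10 lines for 6 of the 16 core genes. The standard deviation of Psma8 over the lines of 0.36 (log2) was the largest of the core. The log2 fold change of Psma8 was -0.05 ± 0.21 (exact permutation p = 0.849). Psmb11 had 54.2, 45.2, 39.8, 59.9 and 32.7 in LPD and 60.7, 52.3, 34.1, 58.1 and 40.4 in NPD, with LPD line 40 at the bottom and NPD line 21 close to it. The interval of its log2 fold change, -0.63 to 0.47, was the widest of all members.

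In the cap, 9 genes were higher and 8 lower in LPD, with a median log2 fold change of 0.00. Of the ATPases, Psmc1 had 6266, 7104, 6559, 7758 and 7072 in LPD and 6895, 6365, 7258, 7761 and 8102 in NPD, with a log2 fold change of -0.06 ± 0.09 (exact permutation p = 0.460). Psmc4, an ATPase with the largest standard deviation of the cap (0.22 on log2), had 2479, 3133, 3579, 3911 and 3278 in LPD and 2957, 2723, 3576, 3698 and 3817 in NPD. LPD lines 1 and 20 were the extremes of all 10 lines for Psmc4, and its log2 fold change was -0.04 ± 0.13 (exact permutation p = 0.802). The other 4 ATPases had estimates of 0.02 to 0.04.

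Psmd4, which binds ubiquitin chains, had 2931, 3208, 3039, 3822 and 3953 in LPD and 3651, 2937, 3562, 3141 and 3598 in NPD, with a log2 fold change of 0.00 ± 0.11 (exact permutation p = 1.00). Psmd14 (ENSMUSG00000026914, chromosome 2, 61711694 to 61800376), the metalloprotease of the lid that takes ubiquitin off the substrate, had 1829, 2344, 2071, 2804 and 2410 in LPD and 1960, 1741, 2294, 2083 and 2461 in NPD. The groups overlap over most of their range, with LPD line 20 highest and NPD line 15 lowest, and the log2 fold change was 0.12 ± 0.12 (exact permutation p = 0.397). Psmd11 had 2949, 3275, 3191, 3940 and 3504 in LPD and 3276, 3070, 3444, 3250 and 3568 in NPD, a log2 fold change of 0.02 ± 0.09 (exact permutation p = 0.857).

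The lid subunit Psmd8, chosen after its values were seen, had the largest estimate of the cap. Its values were 3604, 3479, 3996, 3935 and 4616 in LPD and 3335, 3061, 4325, 2970 and 3830 in NPD, a log2 fold change of 0.17 ± 0.12 (exact permutation p = 0.214, limma adjusted p = 0.994). NPD line 21 was the second highest of the 10 lines, and the log2 fold change rose to 0.25 once it was left out (limma, adjusted p = 0.964, unadjusted under 0.05).

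The inhibitor Psmf1 (ENSMUSG00000032869, chromosome 2, 151715812 to 151744186), which blocks the core in the test tube, had the smallest limma p of the 46 members. It had 630, 628, 749, 747 and 742 in LPD and 505, 584, 676, 614 and 717 in NPD. Thus 3 LPD lines were above every NPD line, by a small margin, and the other LPD lines lay within the NPD range. The log2 fold change was 0.18 ± 0.11 with a 95% interval of -0.07 to 0.43 (limma p = 0.136, adjusted p = 0.994, two-sided exact permutation p = 0.143).

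Of the activators, which open the gate of the core without ubiquitin, Psme1 and Psme2 form 1 ring and are induced by interferon. Psme1 had 866, 847, 1143, 883 and 1139 in LPD and 899, 830, 995, 898 and 946 in NPD (log2 fold change 0.08 ± 0.11, exact permutation p = 0.437). Psme2 had 496, 495, 715, 463 and 723 in LPD and 589, 770, 654, 576 and 597 in NPD (-0.16 ± 0.15, exact permutation p = 0.341). In both genes LPD lines 6 and 40 were the highest of the LPD lines by a wide gap, while 3 LPD lines were below every NPD line for Psme2 only.

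Psme3, the nuclear activator, had 3577, 4021, 3589, 4664 and 3688 in LPD and 3758, 3628, 4080, 4139 and 4205 in NPD, a log2 fold change of -0.02 ± 0.09 (exact permutation p = 0.738). Psme4, an activator linked to histone breakdown, had 4557, 4558, 4030, 5112 and 4335 in LPD and 5193, 4748, 4179, 4496 and 4290 in NPD, also -0.02 ± 0.09 (exact permutation p = 0.802). In both genes the diets overlap, and LPD line 20 was the highest of the LPD lines.

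Among the assembly chaperones, the 3 of the base (Psmd5, Psmd9 and Psmd10) had estimates of -0.06 to -0.01 and the 4 of the core (Psmg1 to Psmg4) of -0.19 to 0.04. Psmg3, chosen after its values were seen, had 256, 258, 257, 275 and 382 in LPD and 274, 346, 348, 309 and 337 in NPD. LPD line 40 was highest of all 10 lines while 3 of the other LPD lines were below every NPD line, and the log2 fold change was -0.19 ± 0.14 (exact permutation p = 0.190, limma adjusted p = 0.994). Once LPD line 40 was left out it was -0.30 (limma, adjusted p = 0.704, unadjusted under 0.05). Psmc3ip, which acts in meiotic recombination, had an estimate of 0.00.

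Over the 10 lines most genes of each part of the particle moved together. For every gene the log2 value of each line was set against the gene's median over all 10. The median deviation of the 16 core genes was 0.02, -0.07, -0.11, 0.16 and 0.26 in LPD lines 1, 4, 6, 20 and 40 and -0.06, -0.03, 0.13, -0.07 and 0.15 in NPD lines 8, 15, 21, 36 and 51. That of the 17 cap genes was -0.18, -0.06, -0.07, 0.19 and 0.12 in LPD and -0.12, -0.16, 0.07, 0.03 and 0.16 in NPD. LPD lines 20 and 40 and NPD lines 21 and 51 were thus high for both and the other six low for at least 1 of them. The means of the LPD and NPD lines were 0.05 ± 0.15 (SD, n = 5) and 0.02 ± 0.11 for the core and 0.00 ± 0.15 and 0.00 ± 0.13 for the cap. All 17 cap genes were above their median in LPD line 20 and in NPD lines 21 and 51, and all 17 were below it in LPD line 1.

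**Figure D3:**
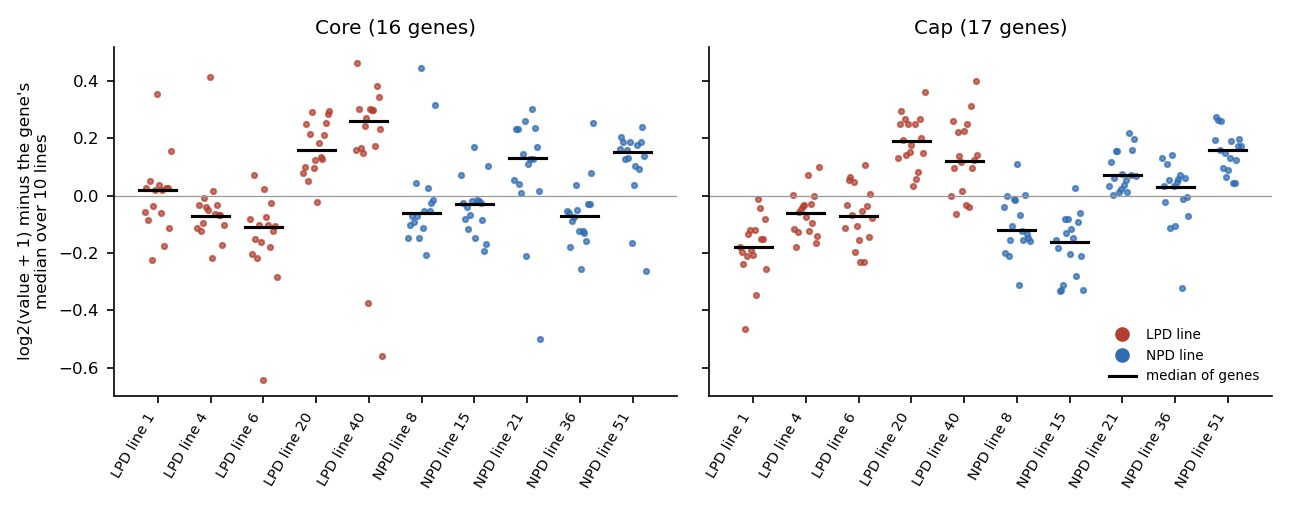
Deviation of each core gene (left) and cap gene (right) from its own median over the 10 lines, on the log2(value + 1) scale, by line, with 1 point for each gene (red LPD, blue NPD) and a bar at the median of the genes. The bars run from -0.11 to 0.26 for the core and from -0.18 to 0.19 for the cap, and high and low lines occur in both diets.

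Pearson's r between pairs of genes over the 10 lines describes the same pattern. It had a median of 0.78 over the 91 pairs of the 14 constitutive core genes, 0.75 over the 136 pairs of cap genes and 0.65 over the 238 pairs of a core with a cap gene, beside 0.07 over all pairs of genes with a mean of at least 1000. The pairs share lines, depth and normalization. The lowest r was 0.28 among core pairs, -0.22 among cap pairs and -0.17 between core and cap. With all lines at 1 common total the medians were 0.66, 0.60 and 0.43, beside 0.01, and the lowest r were -0.03, -0.60 and -0.46. The size of the variation was ordinary, since 52.8% of the 3838 genes at a mean of 1000 or more had a larger standard deviation within diets than the median core gene.

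Some markers of other cells moved with this pattern. The summed level of 10 fibroblast markers was 434, 696, 3451, 436 and 369 in the LPD lines and 2184, 5832, 460, 1160 and 524 in the NPD lines, so that LPD line 6 and NPD lines 8, 15 and 36, in all of which the core was below its median, had the highest sums. Of the 10 markers 7 had a mean of at least 10, and Dcn, Lum, Postn and Twist2 were at 0 in some line. The sum of 10 ESC markers, all detected, was 106501 to 136958 in LPD and 100676 to 136913 in NPD. Gene by gene the r of the ESC markers with the core median over the 10 lines ran from -0.20 (Klf4) to 0.94 (Pou5f1), with a median of 0.35 and 7 of 10 above 0, and the median was 0.08 with the cap. All 10 fibroblast markers had r below 0 with the core, with a median of -0.49. They are not independent, since most were high in the same lines, and the share of all genes with r below 0 was not counted. Markers of primitive endoderm (530 to 2849 in LPD and 345 to 2775 in NPD), trophectoderm (852 to 4369 and 788 to 1567) and blood cells (163 to 317 and 188 to 233) were summed likewise. With the core, all 6 endoderm markers had r above 0, while 2 of 6 trophectoderm and 3 of 5 blood markers did, with Cd68 of blood cells at -0.92. Their part in the variation between lines was not tested, and fewer cells of a type and less RNA per cell cannot be told apart in such samples.

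Core and cap did not move quite alike. The core median minus the cap median was 0.20, -0.01, -0.04, -0.03 and 0.13 in the LPD lines and 0.06, 0.12, 0.06, -0.10 and -0.01 in the NPD lines, with means of 0.05 ± 0.11 (SD, n = 5) and 0.03 ± 0.09. In LPD line 1 the core lay at its median (9 of 16 genes above it) while all 17 cap genes were below theirs. In NPD line 36 the reverse held, with 3 of 16 core and 10 of 17 cap genes above. The summed values of the core divided by those of the cap ran from 0.797 in NPD line 36 to 0.945 in LPD line 40, and were 0.880 ± 0.0558 in LPD and 0.863 ± 0.0438 in NPD. All members together made up 0.735% to 0.854% of the values of a line.

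Core transcripts are shorter than cap transcripts, with median lengths of 1174 and 1819 nucleotides, and the lines differed in how short genes were represented. The median deviation of 401 abundant genes of up to 1300 nucleotides minus that of 1423 longer ones of up to 3200 nucleotides was 0.05, -0.04, -0.05, -0.05 and 0.20 in the LPD lines and -0.08, 0.03, 0.12, -0.11 and 0.00 in the NPD lines. With the trend with length removed from each line, an alternative chosen after seeing the data, core minus cap was 0.15, 0.04, -0.03, -0.03 and -0.02 in LPD and 0.12, 0.12, 0.02, -0.09 and -0.03 in NPD. LPD line 40 went from 0.13 to -0.02, whereas LPD line 1, NPD line 15 and NPD line 36 stayed within 0.05 of their values.

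**Figure D4:**
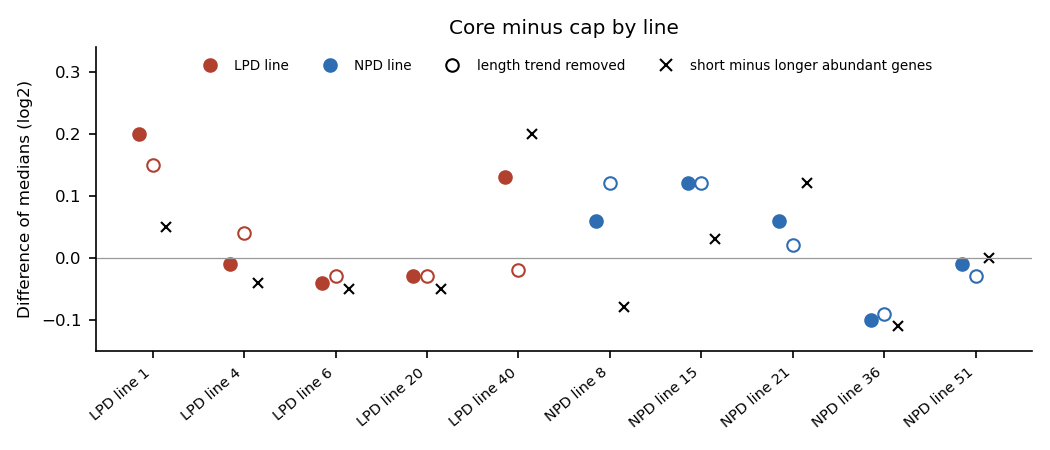
Core median minus cap median by line on the log2 scale (filled circles, red LPD, blue NPD), the same after the trend with transcript length was removed (open circles), and the median of short minus that of longer abundant genes (crosses). LPD line 40 falls from 0.13 to -0.02 when the trend is removed and LPD line 1 from 0.20 to 0.15.

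Proteins that work with the proteasome were not used in choosing the members, and 30 of their genes were set against the core and cap medians over the 10 lines, 60 relations in all. Adrm1, a ubiquitin receptor of the cap whose symbol the rule does not match, had 2523, 2759, 2952, 3668 and 3274 in LPD and 2669, 2433, 3495, 3071 and 3620 in NPD. It followed the cap with r = 0.96 (permutation p = 6.00e-05, adjusted 0.00180) and rho = 0.96 (permutation p = 6.00e-05, adjusted 0.00210), and r was 0.95 without LPD line 20 and NPD line 15. Vcp, the ATPase that pulls ubiquitinated proteins out of complexes and membranes, had 9925, 10471, 10488, 12416 and 11734 in LPD and 10343, 9761, 11143, 11568 and 12043 in NPD. It followed the cap with r = 0.98 (adjusted permutation p = 6.00e-04) and rho = 0.96 (adjusted 0.00210), and with r = 0.96 without LPD line 20 and NPD line 51. Against the core the r of these genes were 0.68 and 0.67, with adjusted permutation p of 0.115 and 0.125. Other cap proteins that the rule does not match went differently. Sem1 had r = 0.31 with the cap (adjusted permutation p = 0.551) and 0.75 with the core (adjusted 0.0484). Uchl5 had r = 0.38 with the cap (adjusted permutation p = 0.420) and 0.68 with the core (adjusted 0.115). Whether a relation to the cap differs from that to the core was not tested for any gene.

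Txnl1, a thioredoxin that binds the cap, had 2671, 2425, 2497, 2934 and 3252 in LPD and 2382, 2519, 2673, 2278 and 2881 in NPD. It followed the core with r = 0.93 (adjusted permutation p = 0.00300) and rho = 0.92 (adjusted 0.00980), and with r = 0.91 without LPD line 40 and NPD line 36. The factor Nfe2l1 went the other way. Its values were 3708, 4581, 5045, 4005 and 3562 in LPD and 4786, 4397, 3992, 4189 and 3314 in NPD, and the 5 lines with a core median above 0 had the 5 lowest. Nfe2l1 had r = -0.81 (permutation p = 0.00491, adjusted 0.0450) and rho = -0.81 (permutation p = 0.00745, adjusted 0.0713) with the core, the lowest r of the 30 genes, and r = -0.78 without LPD line 6 and NPD line 51. With the cap its r was -0.55 (adjusted permutation p = 0.249). These are levels of the Nfe2l1 transcript, and the activity of the factor was not measured. Ube3a, a ubiquitin ligase that binds the proteasome, had r = -0.80 with the core (adjusted permutation p = 0.0450, rho = -0.72, adjusted 0.0978) and r = -0.63 without LPD line 40 and NPD line 21.

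In all, 15 of the 60 relations had an adjusted permutation p of r under 0.1, 13 of them with r above 0. Such r are common in these lines. An r of at least 0.67 in size, the smallest among the 15, was reached by 11 of 30 partners with the core and 8 of 30 with the cap, beside 22.3% and 20.2% of the 3803 genes outside the members with a mean of at least 1000. Among those 3803, 0.0526% had an r with the cap as high as Vcp and 0.237% as high as Adrm1, 0.815% one with the core as high as Txnl1, and 1.03% and 1.24% one as low as Nfe2l1 and Ube3a. With all lines at 1 common total, a setting added after seeing the data, 5 of the 60 had an adjusted p of r under 0.1, namely Adrm1 (r = 0.94) and Vcp (0.94) with the cap and Txnl1 (0.85), Nfe2l1 (-0.92) and Ube3a (-0.84) with the core. In the 7 lines of at least 20000000 reads the r of the values as normalized by the authors were 0.98, 0.98, 0.93, -0.69 and -0.68. At 1 common total, 3 of 30 partners had an r of at least 0.84 in size with the core, beside 3.58% of the 3803 genes. With the cap it was 2 of 30, beside 2.71%. The relations run across both diets. For Adrm1, Vcp, Txnl1, Nfe2l1 and Ube3a no difference between the diets passed the limma test. The unadjusted limma p were 0.961, 0.967, 0.287, 0.911 and 0.845 in that order. Fibroblast markers, which were higher in lines of low core levels as given above, were not separated from these relations.

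**Figure D5:**
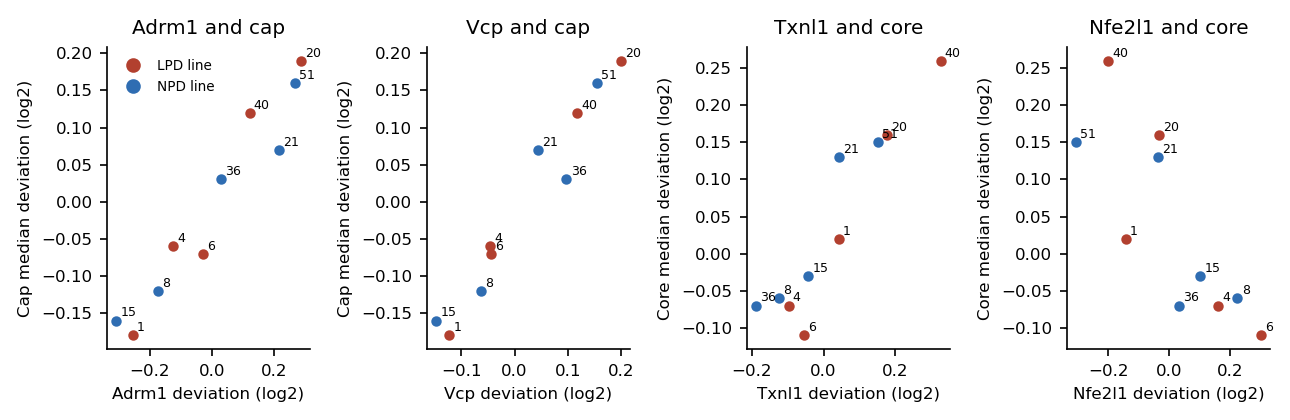
Deviation of Adrm1 and Vcp (against the cap median) and of Txnl1 and Nfe2l1 (against the core median) from their medians over the 10 lines, on the log2 scale, with 1 point for each line (red LPD, blue NPD) marked by its number. Adrm1, Vcp and Txnl1 rise with r = 0.96, 0.98 and 0.93, and Nfe2l1 falls with r = -0.81.

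Other genes of the pathway and of related complexes were counted in the comparison of the diets. Of the 30 partners 18 were higher and 12 lower in LPD with a median log2 fold change of 0.02, and 1 had an unadjusted limma p under 0.05 (beside 5.02% of all genes). That gene was Zfand5, a protein that stimulates the proteasome. It had 1656, 1535, 1328, 1367 and 1221 in LPD and 1116, 1255, 1180, 1222 and 1152 in NPD, so that 4 LPD lines were above every NPD line and LPD line 40 within their range. The log2 fold change was 0.25 ± 0.09 (limma p = 0.0179, adjusted p = 0.860, two-sided exact permutation p = 0.0238). With all lines at 1 common total it was 0.22 and its unadjusted p no longer under 0.05 (limma, adjusted p = 0.964).

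The COP9 signalosome and the initiation factor eIF3 share the architecture of the lid. Of the 10 signalosome genes 5 were higher and 5 lower, with a median of 0.00, and the smallest limma p was that of Cops7b, at 522, 544, 518, 702 and 573 in LPD and 665, 634, 593, 740 and 703 in NPD. Its log2 fold change was -0.23 ± 0.11 (exact permutation p = 0.0556, limma adjusted p = 0.994), with 4 LPD lines below every NPD line. Of the 14 eIF3 genes 11 were higher and 3 lower, with a median of 0.05 and none under 0.05. Eif3m had the smallest limma p, at 2733, 2760, 2684, 3061 and 3195 in LPD and 2497, 2618, 2771, 2551 and 2891 in NPD (log2 fold change 0.11 ± 0.08, exact permutation p = 0.127), and the groups overlap.

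The chaperonin CCT, a barrel that folds actin and tubulin, was taken as a complex of like size without a role in degradation. The table holds 7 of its genes, of which 4 were higher and 3 lower, with a median of 0.02, and Cct4 had the smallest limma p, at 9594, 8219, 8694, 9270 and 9290 in LPD and 8642, 8161, 8107, 8777 and 8561 in NPD (0.09 ± 0.07, exact permutation p = 0.0714). Its genes also went with the proteasome over the lines, with a median r of 0.67 with core genes and 0.60 with cap genes, close to the 0.65 between core and cap. Of the genes of the immunoproteasome and antigen presentation, the inducible subunits were low. Psmb10 was at 105 to 202 in LPD and 149 to 225 in NPD, Psmb9 at 29.4 to 48.8 and 26.2 to 52.6, and Psmb8 did not reach a mean of 10, whereas Tapbp, which helps to load peptides, was at 453 to 1435 and 730 to 1007. Of the 7 tested, 2 were higher and 5 lower with a median of -0.11, none under 0.05.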

How the data were processed

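RNA sequencing of 5 LPD and 5 NPD lines was analysed, and 0 columns were without a mapped line. Per the labels and methods, reads were trimmed with cutadapt, quantified with Salmon on GRCm38 transcripts and tested with Sleuth 0.30.0. The authors deposited 1 table of a normalized signal per gene, named as normalized with DESeq2, whose values are not whole, so no count model was run. How transcripts were summed to genes is not given in the sources used here. Splitting reads between transcripts by estimation can shift values between overlapping or near-identical genes.

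Genes were matched by identifier to GENCODE M21 (19918 of 20206). Values were taken as log2(value + 1), and limma 3.58.1 in R 4.3.3 (mean-variance trend, diet as the only term) tested the 14354 genes whose mean reached 10, with p-values adjusted after Benjamini and Hochberg. The procedure was tested on simulated data. Single genes were also tested by exact permutation over the 252 assignments of 5 and 5 lines (smallest p 0.00794, two-sided), and relations over lines with 100000 permutations. Depth was estimated from the value of 1 read in the low values of genes with 1 transcript (whole within 0.15) and covers counting error only. The limma p-values weigh the difference between diets against the spread between lines. Permutation p-values come from reassigning the lines.

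Named with values in every line were, by rule, members under an unadjusted p of 0.05 or without overlap (none), the catalytic subunits, Psmd14, Psmd4, the activators, Psmf1, the extremes of level and of standard deviation in core and cap, and the member of each related list with the smallest p (for the immunoproteasome list it is not reported here). Members and lists were chosen with earlier results of these data known, and the partners set against the lines were named after their relations were seen. Other steps ran in Python 3.11.15 (pandas 2.3.3, numpy 2.4.6, scipy 1.17.1) and figures in matplotlib 3.10.9. Alternatives were other pseudocounts, filters, scalings, limma options, depth as a covariate and each line left out. Protein sequences were not used here.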

Additional observations from a re-analysis of the deposited data

Results flagged for a closer look

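Of 102 groups of 5 values (each named gene or member in each diet) 1 had a line far from the other four by Dixon's ratio, where chance gives about 1 in 20. Psmg3, a chaperone of core assembly, was at 382 in LPD line 40 and at 256 to 275 in the other LPD lines.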

How the results depend on the processing

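At an adjusted p under 0.1 no proteasome gene was called in any of the 23 alternatives. The count of all genes so called, 0 as reported, was 1 with array weights and 0 to 40 with single lines left out (40 without LPD line 40), and 549 to 903 genes were at an unadjusted p under 0.05 with single lines left out, against 721. Proteasome genes at an unadjusted p under 0.05 numbered 0 to 1 with single lines left out (Psmg3 without LPD line 40, Psmd8 without NPD line 21), and the cause was not tested. The 24 of 46 genes higher in LPD became 13 with each line rescaled to the same total, 13 with quantile normalization, 11 with array weights and 12 to 35 with single lines left out (12 without LPD line 40). The share of all genes higher in LPD was 50.5%, and became 42.2% rescaled and 47.3% with quantile normalization. It was 50.4% with array weights and 50.3% without LPD line 40. The median over all genes moved by no more than 0.03. The immunoproteasome median of -0.11 was 0.01 with depth as a covariate, 0.00 without LPD line 4 and NPD line 15 together, and -0.14 to 0.04 with single lines left out (0.04 without LPD line 6). Zfand5 was under an unadjusted p of 0.05 in 22 of its 23 alternatives and missed it with each line at the same total. Signs turned for named genes near 0, none of them called. Psmb7 was -0.02 rescaled, -0.03 with quantile normalization and -0.04 with array weights. Psmd11 was -0.02, -0.01 and -0.02 under the same. Psma8 was 0.08 and Psme4 0.01 with array weights, and with depth as a covariate Psmb11 was 0.08 and Psme4 0.02. With single lines left out the ranges were -0.16 to 0.10 for Psma8, -0.20 to 0.03 for Psmb11, -0.01 to 0.10 for Psmb5, -0.01 to 0.11 for Psmb6, -0.05 to 0.06 for Psmb7, -0.11 to 0.06 for Psmc4, -0.04 to 0.06 for Psmd11, -0.09 to 0.01 for Psme3 and -0.07 to 0.03 for Psme4. In the rest, 751 of the values under an alternative were rated as the same. For counts this meant a similar size, and for medians a shift smaller than the spread between lines. For single genes and relations it meant no change of sign and the same call at an adjusted p under 0.1. No paired analysis was possible because the lines of the diets share no numbers. The lower depth of LPD lines 4, 6 and 40 limits low members such as Psmb11.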
